A study of Mus musculus with 6 samples.

Results

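A set of 9 transcription factors that steer T cells toward fates other than the follicular one was followed in sorted splenic follicular helper T (Tfh) cells. They are *Tbx21*, *Gata3*, *Rora*, *Runx1*, *Runx2*, *Runx3*, *Eomes*, *Zeb2* and *Satb1*. They were taken by name from a given list, drawn up with earlier results of these data known but with no threshold on their values, and make up 9 of the 53379 genes counted. The RNA-seq data compared Tfh cells of 3 *Prdm1*-CKO mice with those of 3 control (CTL) mice, to ask how Tfh cells change when BLIMP-1, the product of *Prdm1*, is missing from dendritic cells. *Prdm1*-CKO mice carried *Prdm1* fl/fl and CD11c-Cre, so that the deletion was directed to cells that express CD11c and not to the Tfh cells themselves. CTL mice were *Prdm1* fl/fl without Cre or *Prdm1*+/+ with CD11c-Cre, and the labels do not say which control genotype each CTL mouse had. In the labels the *Prdm1*-CKO mice carry both KO and KD as the name of their Blimp1 genotype. All mice were females, 6 to 8 weeks old at immunization with NP-CGG, a hapten coupled to a carrier protein. Live TCRβ+ CD4+ CXCR5+ PD1+ cells were sorted from the spleens on day 7. The sort had no FOXP3 gate, so follicular regulatory T cells were not removed. Each mouse gave 1 library, and the mouse is the replicate throughout.

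Helper and killer T cells take on their functions under lineage factors that switch on one set of genes and hold back others, and several of these factors can be present in the same cell. T-BET, encoded by *Tbx21*, directs the Th1 program, GATA3 the Th2 program, and RORα, encoded by *Rora*, takes part in the Th17 program. RUNX proteins bind DNA with the partner CBFβ and shape the choice between CD4 and CD8 fates, EOMES and ZEB2 belong to effector and cytotoxic programs, and SATB1 organizes chromatin in thymocytes and resting T cells. Tfh cells depend on BCL6, and Tfh cells that also use T-BET or GATA3 have been described as Tfh1 and Tfh2 cells.

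The RUNX genes are the closest relatives among the 9 factors, and their promoters show it. In RefSeq promoter windows on GRCm38.p6, which run from 250 bases before to 50 bases after each annotated start, *Runx1*, *Runx2* and *Runx3* share a stretch of 18 bases. The stretch holds the letters of the RUNX binding motif, ACCACA, 2 times in a row, shown in capitals within 30 bases of each promoter, read 5′ to 3′ on the strand of the gene.
Runx1, chr16:92826025-92826054, minus strand: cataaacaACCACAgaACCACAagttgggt
Runx2, chr17:44814583-44814612, minus strand: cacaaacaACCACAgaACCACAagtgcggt
Runx3, chr4:135120503-135120532, plus strand: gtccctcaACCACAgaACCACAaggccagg
The 18 bases that they share, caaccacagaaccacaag, occurred on either strand in 4 of 32851 promoter windows of the genome, those of *Runx1*, *Runx2*, *Runx3* and *Gm16225*. The printed piece begins 20 bases after the annotated start in *Runx1*, 15 bases after it in *Runx2* and 142 bases before it in *Runx3* (position -142).

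The 9 factors had 18 promoter windows in all, since *Satb1* has 5, *Zeb2* 4, and *Runx1* and *Runx3* 2 each. The RUNX letters ACCACA were present on either strand in 3 of these 18 windows, 1 for each RUNX gene, and in 16.8% of all windows. The E-box bound by ZEB proteins, CAGGTG, was present in 5 of the 18, in windows of *Runx1*, *Runx3*, *Satb1* and *Tbx21*, and in 20.2% of all windows. The ROR half-site AGGTCA was present in 2, of *Runx2* and *Satb1*, and in 16.3% of all. The GATA letters AGATAA (11.2% of all windows), the T-box letters AGGTGTGA (1.28%), the BCL6 letters TTCCNAGAA (2.24%) and the BLIMP-1 letters GAAAGTG (4.81%) were in none of the 18. The T-box and E-box letters can overlap, because both hold AGGTG. A match of these letters describes the sequence and does not show a bound site.

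Close relatives matter for counting, because reads of 25 bases can fall on sequence that paralogs share. Of the transcript sequence in GENCODE M21, *Runx1* and *Runx3* had 16 stretches of 25 bases in common, which is 0.133% of those of *Runx1* and 0.326% of those of *Runx3*. The longest run lies in the coding sequence of both genes.
Runx1 and Runx3, 38 bases: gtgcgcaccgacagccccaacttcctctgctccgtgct
Runx1 and Runx2, 26 bases, coding in both: tccccaccgtggtcctatgaccagtc
Runx2 and Runx3, 26 bases, coding in both: tgctccgtgctgccctcgcactggcg
Runx2 and Satb1, 32 bases, coding in both: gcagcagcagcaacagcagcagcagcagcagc
The last run is a repeat, and *Runx2* and *Satb1* had 12 stretches of 25 bases in common, against 4 for *Runx2* and *Runx3* and 2 for *Runx1* and *Runx2*. The T-box factors *Tbx21* and *Eomes* shared no stretch of 25 bases. The share of 25-base stretches also found in a transcript of any other gene, on either strand, was 0% for *Tbx21*, 5.40% for *Gata3* and 7.09% for *Runx2*. It was between 1.01% and 3.91% for the other 6 factors. These shares include genes that overlap a factor at its own locus. Exons of 11 other genes overlapped those of the factors, among them *Runx2os1* (5.87% of the *Runx2* exon bases), *Gm13256* (3.90% of *Gata3*), *Zeb2os* (3.27% of *Zeb2*) and *Gm33460* (2.84% of *Eomes*), all on the opposite strand. None of the 11 had more than 18 counts in any mouse. Strandedness of the counting is not given in the sources used here.

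Total counts lay between 7147601 and 16973392 per library, and 3 counts, taken as the smallest level a library can show, came to between 0.177 and 0.420 CPM (counts relative to the library total), a limit that covers counting error only. All other CPM values below are also scaled with edgeR's TMM factors. CTL mouse 2 stood apart from the rest. Its log2 CPM had a mean correlation of 0.875 with the other libraries, against 0.923 to 0.944 for the other 5, and it had a count on 16650 genes against 18480 to 21501. Fold changes of the factors are given with and without this mouse. *Bcl6*, the Tfh factor, was present in every mouse at 9.85 to 18.5 CPM per kb of exon, and *Foxp3*, the regulatory T cell factor, at 29.3 to 39.7 CPM per kb. *Prdm1* itself was at 28.9, 29.97 and 27.5 CPM in CTL mice and 30.2, 30.8 and 30.9 CPM in *Prdm1*-CKO mice. As the deletion was directed to dendritic cells, this level does not test the labels.

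All 9 factors were detected in all 6 mice and passed the expression filter, with counts from 48 for *Eomes* in CTL mouse 2 to 3239 for *Gata3* in *Prdm1*-CKO mouse 1. Levels of different genes were compared per length, as CPM per kb of annotated exon. *Gata3* was the most abundant, at a mean of 54.6 ± 8.84 CPM per kb (SD, n = 6), and its level exceeded that of 93.3% of the 14555 genes tested. *Tbx21* followed at 29.6 ± 5.93 CPM per kb (SD, n = 6). *Runx3*, at 11.95 ± 2.17 CPM per kb, and *Runx1*, at 8.21 ± 1.93, came next. *Rora* at 5.63 ± 1.48, *Satb1* at 5.04 ± 1.01, *Eomes* at 4.30 ± 1.75, *Zeb2* at 3.30 ± 0.57 and *Runx2* at 2.68 ± 0.40 CPM per kb closed the order. On the same scale *Bcl6* averaged 14.2, between *Tbx21* and *Runx3*. *Tcf7*, a factor of resting and follicular T cells, averaged 208.

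The upper part of this order was the same in nearly every mouse, and the lower part was not. *Gata3* lay above *Tbx21* in 6 of 6 mice, by 0.89 ± 0.37 on the log2 scale (SD), and *Tbx21* above *Runx3* in 6 of 6, by 1.30 ± 0.29. *Runx1* lay above *Rora* in 6 of 6 mice, by 0.55 ± 0.40. For these 3 pairs the two-sided exact sign-flip permutation test over 6 mice gave p = 0.03125, the smallest value it can give, and 0.0833 after Benjamini-Hochberg adjustment over the 8 neighbouring pairs. *Runx3* lay above *Runx1* in 5 of 6 mice (0.54 ± 0.51, exact p = 0.0625), with the order turned in CTL mouse 2. The pairs from *Rora* down to *Runx2* differed by less than the spread between mice, with exact p from 0.156 to 0.531. None of the 8 pairs passed an adjusted p of 0.05. With the smallest exact sign-flip p at 0.03125, no pair can pass by itself, only together with most of the 8. Both the order and these calls depended on the length used. With the longest transcript in place of all annotated exons, 6 of the same 8 pairs passed, at an adjusted exact sign-flip p = 0.0417. *Rora* and *Satb1* were among them in the turned direction, and not all of the 8 pairs are neighbours by that length. The order turned for *Runx3* and *Runx1*, for *Rora* and *Satb1* and for *Eomes* and *Zeb2*, and it read *Gata3*, *Tbx21*, *Runx1*, *Runx3*, *Satb1*, *Zeb2*, *Rora*, *Eomes*, *Runx2*.

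**Figure D1:**
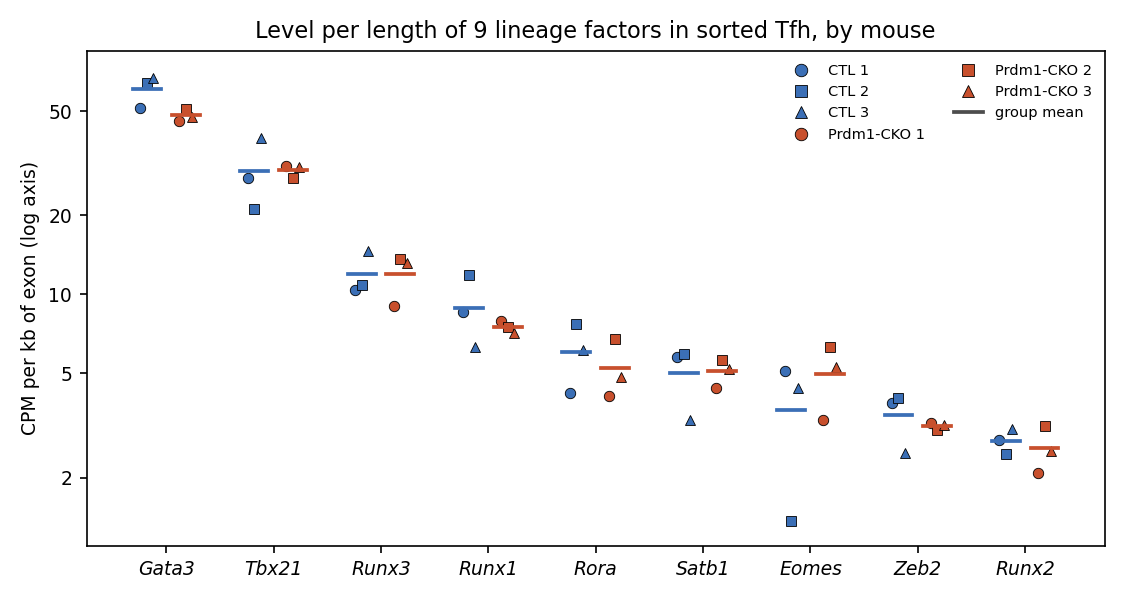
Level of each lineage factor in CPM per kb of exon (vertical log axis), with 1 point per mouse, blue for CTL and orange for *Prdm1*-CKO, and a bar at each group mean. *Gata3* and *Tbx21* lie above the other 7 factors in every mouse, the *Gata3* points of the groups are separate, and *Eomes* in CTL mouse 2 lies far below the other *Eomes* points at 1.37 CPM per kb.

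None of the 9 factors passed the threshold between *Prdm1*-CKO and CTL Tfh cells in edgeR's quasi-likelihood test (3 against 3 mice, Benjamini-Hochberg adjustment over 14555 genes). The adjusted p was 0.996 for 6 factors and 0.998 for *Tbx21*, *Runx3* and *Satb1*. At an adjusted p under 0.05, 0 genes of the whole table were higher and 0 lower (0% each way). At an unadjusted p under 0.05, 0 of the 9 factors were called, against 0.928% of all genes tested higher and 1.42% lower in *Prdm1*-CKO mice. DESeq2's Wald test and voom with sample quality weights also called 0 of the 9 at that threshold. The fold changes of the 9 had a median of -0.10 on the log2 scale, with 3 above and 6 below 0, beside a median of 0.01 and 48.9% below 0 over all genes tested. The 95% intervals show what this depth and number of mice allow. They keep the fold of *Gata3* between 0.622 and 1.01 and that of *Tbx21* between 0.696 and 1.47, while that of *Eomes* could lie anywhere between 0.640 and 2.94. In bulk RNA, fewer cells that express a factor and less RNA per cell cannot be told apart.

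**Figure D2:**
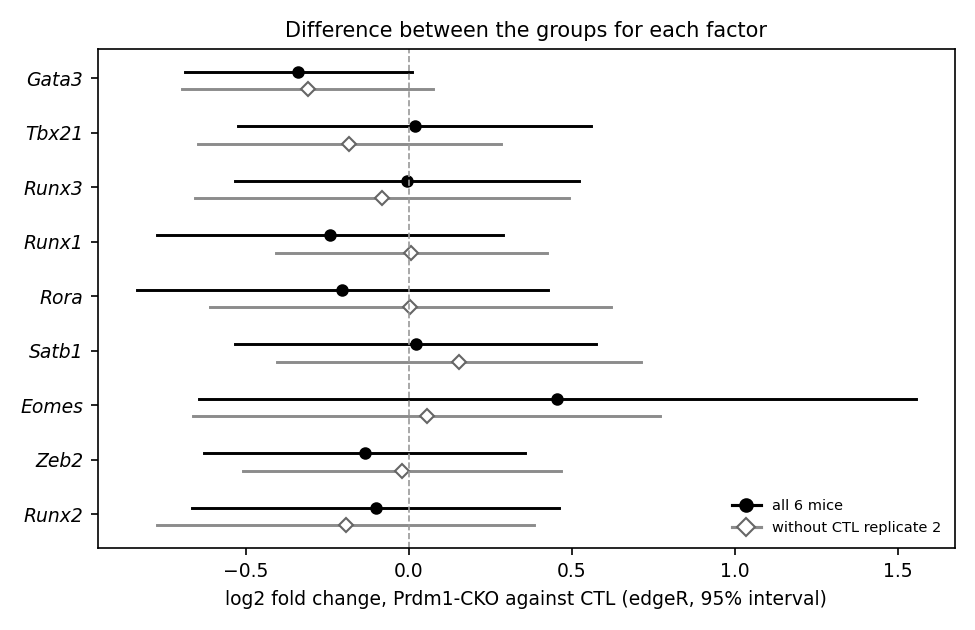
Log2 fold change of each factor in *Prdm1*-CKO against CTL Tfh cells with its 95% interval from edgeR, for all 6 mice (black) and without CTL mouse 2 (open diamonds, grey lines). Every interval includes 0, that of *Gata3* lies farthest to one side, and the *Eomes* estimate drops from 0.45 to 0.05 without that mouse.

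*Gata3*, the Th2 factor, which all T cells also need in the thymus (chr2:9857078-9890034, minus strand, GRCm38, identifier ENSMUSG00000015619.10), was the only one of the 9 whose groups did not overlap. Its level was 205, 256 and 266 CPM in CTL mice 1 to 3 and 183, 203 and 189.7 CPM in *Prdm1*-CKO mice 1 to 3. Every *Prdm1*-CKO mouse therefore lay below every CTL mouse, with CTL mouse 1 only just above *Prdm1*-CKO mouse 2. Among all genes tested, 3.86% had every *Prdm1*-CKO mouse below every CTL mouse, the share against which 1 of 9 factors is to be read. None of the 9 had every *Prdm1*-CKO mouse above, which 4.56% of all genes had. The log2 fold change was -0.34 (standard error 0.15, 95% interval -0.69 to 0.01, adjusted p = 0.996 from edgeR). The exact permutation test gave p = 0.1, the smallest it can give for 3 mice against 3. Without CTL mouse 1, the lowest CTL mouse, the log2 fold change was -0.46 and its 95% interval, -0.82 to -0.10, no longer held 0, with an adjusted p = 0.685 from edgeR. Without CTL mouse 2 it was -0.31 (interval -0.70 to 0.08). *Gata3* also varied less within groups than most genes, with an SD of 0.15 on the log2 scale, below that of all but 9.55% of genes tested.

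*Gata3* is also transcribed by basophils, mast cells and regulatory T cells, and markers of these cells were measured in the same libraries. The TCRβ+ CD4+ gate should remove basophils and mast cells, but not regulatory T cells. The 8 basophil and mast cell markers summed to 102, 109 and 24.3 CPM in CTL mice and 53.8, 50.6 and 37.3 CPM in *Prdm1*-CKO mice (exact permutation p = 0.6). The difference of -0.47 on the log2 scale was -0.14 without CTL mouse 1, -0.09 without CTL mouse 2, -1.18 without CTL mouse 3 and -0.31 without *Prdm1*-CKO mouse 3. *Fcer1a*, a chain of the IgE receptor, was lower in every *Prdm1*-CKO mouse, at 3.43 ± 0.69 against 10.2 ± 3.35 CPM (SD, n = 3), with a log2 fold change of -1.57 (standard error 0.44). *Ms4a2*, another chain of that receptor, was at 7.68 ± 1.31 CPM in *Prdm1*-CKO and 23.1 ± 18.0 CPM in CTL mice (SD, n = 3), and its groups overlapped. They were the 2 of the 6 tested markers at an unadjusted p under 0.05, both lower, beside 1.42% of all genes tested. *Tpsb2*, a mast cell tryptase, had 0 counts in all mice. The sum was lowest in CTL mouse 3, which had the highest *Gata3*. The 8 regulatory T cell markers summed to 944 to 1014 CPM in CTL mice and 828 to 938 CPM in *Prdm1*-CKO mice (exact permutation p = 0.1), with 0 of the 8 at an unadjusted p under 0.05. The 8 markers went both ways, with 3 log2 fold changes above and 5 below 0, a median of -0.05 and a range from -0.29 to 0.45. The smallest p were those of *Ikzf2*, at 304 ± 29.9 CPM in CTL and 255 ± 41.1 CPM in *Prdm1*-CKO mice, and *Il2ra*, at 51.6 ± 17.1 and 42.2 ± 4.31 CPM (SD, n = 3). The sums of the regulatory T cell markers did not overlap between the groups, nor did the levels of *Gata3*. Within the groups the mice were ordered differently. The sum was highest in CTL mouse 2 and lowest in *Prdm1*-CKO mouse 3, while *Gata3* was highest in CTL mouse 3 and lowest in *Prdm1*-CKO mouse 1. The part of either cell type in the *Gata3* level was not tested.

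*Tbx21*, the Th1 factor (chr11:97098071-97115331, minus strand), was at 69.0, 52.8 and 98.1 CPM in CTL mice and 76.7, 69.2 and 76.4 CPM in *Prdm1*-CKO mice. All 3 *Prdm1*-CKO values lay between the CTL extremes, which CTL mouse 2 set below and CTL mouse 3 above. The log2 fold change was 0.02 (standard error 0.24, interval -0.52 to 0.56), and it was -0.18 without CTL mouse 2. The ratio of *Tbx21* to *Gata3* per length was 0.538, 0.330 and 0.590 in CTL mice and 0.672, 0.546 and 0.644 in *Prdm1*-CKO mice. It was higher by 0.39 on the log2 scale in *Prdm1*-CKO mice, with 1 CTL mouse inside the *Prdm1*-CKO range (exact permutation p = 0.2). CTL mouse 2, which stood apart from the rest, had by far the lowest ratio, and much of this difference came from that mouse.

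*Rora*, a nuclear receptor of the Th17 program (chr9:68653786-69388246, plus strand), was at 54.9, 101 and 80.2 CPM in CTL mice and 53.5, 88.4 and 63.2 CPM in *Prdm1*-CKO mice. The mouse numbered 1 was the lowest and the mouse numbered 2 the highest in both groups, and the groups overlapped almost fully. The log2 fold change was -0.20 (standard error 0.27, interval -0.83 to 0.43) and 0.00427 without CTL mouse 2.

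*Runx1* on chromosome 16, *Runx2* (chr17:44495987-44814797, minus strand) and *Runx3* (chr4:135120652-135177990, plus strand), whose shared promoter and coding stretches are printed above, were all present, each with its own pattern across the mice. *Runx1*, needed for blood stem cells and for T cell development, was at 103, 142 and 75.8 CPM in CTL mice and 95.4, 90.6 and 85.6 CPM in *Prdm1*-CKO mice. The *Prdm1*-CKO values lay inside the CTL range, and the highest and the lowest value both came from CTL mice. *Runx2*, best known from bone and also used by effector and memory T cells, was at 24.7, 21.7 and 27.1 CPM in CTL mice and 18.5, 27.8 and 22.3 CPM in *Prdm1*-CKO mice. *Runx3*, the factor of the CD8 lineage and a partner of T-BET in Th1 cells, was at 51.9, 54.4 and 73.4 CPM in CTL mice and 45.3, 68.0 and 65.7 CPM in *Prdm1*-CKO mice. For both, the lowest value was that of *Prdm1*-CKO mouse 1 and the groups overlapped. The log2 fold changes were -0.24 (standard error 0.23) for *Runx1*, -0.10 (0.25) for *Runx2* and -0.0042 (0.23) for *Runx3*, with 95% intervals of -0.77 to 0.29, -0.66 to 0.46 and -0.53 to 0.52. Without CTL mouse 2 they were 0.00816 for *Runx1*, -0.19 for *Runx2* and -0.08 for *Runx3*.

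Within the RUNX family, *Runx3* exceeded *Runx2* per length by 3.71 to 5.21 times in all 6 mice, while the ratio of *Runx1* to *Runx3* ran from 0.430 in CTL mouse 3 to 1.09 in CTL mouse 2. *Cbfb*, which encodes the shared partner CBFβ, was at 10.8 to 28.0 CPM per kb, above *Runx2* in every mouse. Its highest level was in CTL mouse 2, as for *Runx1*. The groups overlapped in both of these ratios, with exact permutation p of 0.9 for *Runx1* to *Runx3* and 0.6 for *Runx3* to *Runx2*.

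*Eomes*, the T-box relative of *Tbx21* (chr9:118478212-118486132, plus strand), varied most among mice. It was at 21.2, 5.69 and 18.2 CPM in CTL mice and 13.7, 26.2 and 22.1 CPM in *Prdm1*-CKO mice. The highest mouse had 4.61 times the level of the lowest, while for the other 8 factors this fold lay between 1.46 and 1.89. CTL mouse 2, with 48 counts, was the low one. The SD within groups was 0.80 on the log2 scale, above that of 80.6% of genes tested. The log2 fold change was 0.45 (standard error 0.48, interval -0.64 to 1.55), the farthest from 0 of the 9, and it was 0.05 without CTL mouse 2.

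*Zeb2*, which encodes a transcriptional repressor used by terminal effector T cells and natural killer cells (chr2:44983632-45117395, minus strand), was at 76.9, 80.2 and 49.4 CPM in CTL mice and 64.6, 60.5 and 63.1 CPM in *Prdm1*-CKO mice. The *Prdm1*-CKO mice lay close together, within the wider range of the CTL mice. The log2 fold change was -0.14 (standard error 0.21, interval -0.63 to 0.36) and -0.02 without CTL mouse 2. Its relative *Zeb1* was lower in every *Prdm1*-CKO mouse, at 40.1 ± 6.12 against 50.7 ± 1.83 CPM (SD, n = 3), with a log2 fold change of -0.34 (standard error 0.19). Macrophages also express *Zeb2*. The 12 macrophage markers summed to 1709, 578 and 884 CPM in CTL mice and 1492, 1229 and 1695 CPM in *Prdm1*-CKO mice (exact permutation p = 0.4). The difference of 0.61 on the log2 scale was 0.25 without CTL mouse 2 and 1.03 without CTL mouse 1. The CTL mouse with the lowest macrophage sum, mouse 2, had the highest *Zeb2*, and the part of macrophages in the *Zeb2* level was not tested.

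*Satb1*, the chromatin organizer (chr17:51736187-51833290, minus strand), was at 109.5, 113 and 63.0 CPM in CTL mice and 83.96, 107 and 99.0 CPM in *Prdm1*-CKO mice. CTL mouse 3 alone was low, and the *Prdm1*-CKO mice lay between it and the other CTL mice. The log2 fold change was 0.02 (standard error 0.24, interval -0.53 to 0.57) and 0.15 without CTL mouse 2.

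Apart from *Gata3*, the highest and lowest levels did not separate the groups. CTL mouse 3 had the highest level of *Tbx21*, *Gata3* and *Runx3* and the lowest of *Runx1*, *Zeb2* and *Satb1*. CTL mouse 2 had the highest level of *Rora*, *Runx1*, *Zeb2* and *Satb1* and the lowest of *Tbx21* and *Eomes*. Only *Eomes* in CTL mouse 2 lay over 1 log2 unit below the CTL mean, at -1.19, and *Prdm1*-CKO mouse 2 was the farthest above it, at 1.01.

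**Figure D3:**
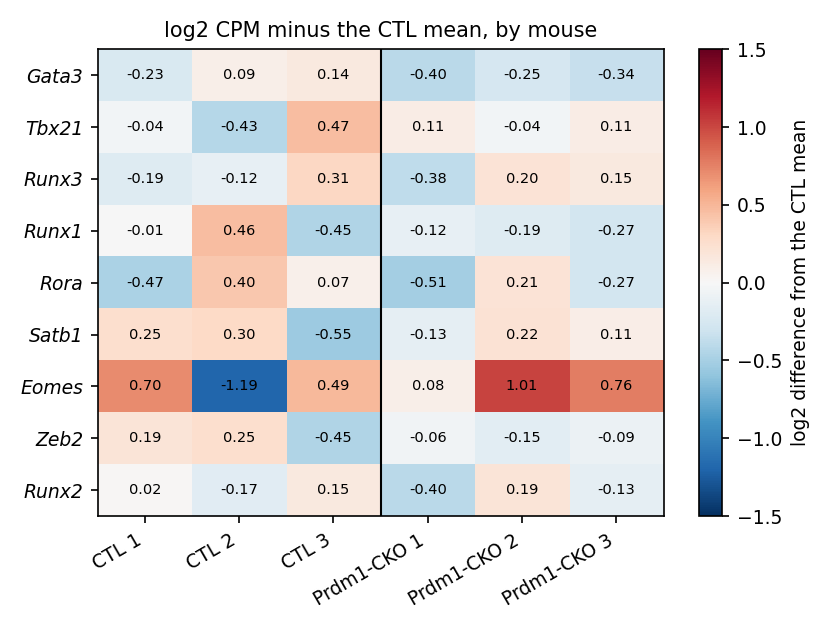
Log2 CPM of each factor in each mouse minus the mean of the CTL mice, with the value written in each cell (red above, blue below the CTL mean). *Gata3*, *Runx1* and *Zeb2* are below the CTL mean in all 3 *Prdm1*-CKO mice, and each is also below it in a CTL mouse (*Gata3* in CTL mouse 1 at -0.23, close to *Prdm1*-CKO mouse 2 at -0.25, and *Runx1* and *Zeb2* in CTL mouse 3 at -0.45 each), and the darkest cell is *Eomes* in CTL mouse 2 at -1.19.

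For each factor, the gene with the most similar profile over the 6 mice was sought among the 162 other listed genes that passed the filter, by the mean absolute difference of centred log2 CPM. The nearest to *Tbx21* was *Ctsw*, a protease of cytotoxic cells (difference 0.0840), and the nearest to *Gata3* was *Nkg7*, a protein of cytotoxic granules (0.0699). *Runx1* was nearest to *Il18rap* (0.0869), *Runx2* to *Fasl* (0.104) and *Runx3* to *Icos* (0.0972). *Rora* was nearest to *Ldb1* (0.117), *Zeb2* to *Lef1* (0.0826), *Satb1* to *Zeb2* (0.135) and *Eomes* to *Cbfa2t3* (0.160). The median difference over the candidates was 0.368 to 0.652. All points share the same 6 libraries, so that these values describe likeness within these mice only.

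The programs that the factors are known to control were read from lists of their known genes, and 0 listed genes reached an adjusted p under 0.05 in edgeR. The lists also hold partners, relatives, resting T cell and Tfh identity genes and markers of other cell types. In all, 154 listed genes were tested besides the 9 factors. At an unadjusted p under 0.05, 5 of these were higher and 8 lower, beside 0.928% and 1.42% of all genes tested. All 5 higher genes were plasma cell, macrophage or erythroid markers, *Jchain*, *C1qc*, *Hbb-bs*, *Hbb-bt* and *Hba-a1*. The lower ones included the basophil and mast cell markers *Fcer1a* and *Ms4a2*. Leaving out 1 mouse at a time gave 1 to 16 in the higher direction and 4 to 13 in the lower, with the most in both without CTL mouse 1, and every mouse but CTL mouse 3 moved at least 1 of these counts by over 1.5 times. Of the 15 Th1 genes, 0 were higher and 2 were lower at that threshold, with a median log2 fold change of -0.16. *Ccl5*, a chemokine of effector T cells, was at 85.4, 74.3 and 109 CPM in CTL mice and 42.1, 59.2 and 50.8 CPM in *Prdm1*-CKO mice, and the groups did not overlap. The difference was -0.82 on the log2 scale with a standard error of 0.21, and edgeR gave an adjusted p = 0.996. *Ccl4*, a related chemokine, had a log2 fold change of -1.08 (standard error 0.40), and its groups overlapped. *Ifng*, the signature cytokine of Th1 cells, named here after its values were seen, was at 13.9 to 22.0 CPM in CTL mice and 13.6 to 23.6 CPM in *Prdm1*-CKO mice.

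Of the 12 Th2 genes, 9 were tested and 0 were called in either direction, with a median log2 fold change of 0.08. *Bhlhe41*, a repressor expressed by Th2 cells, was at 5.55, 0 and 1.18 CPM in CTL mice and 6.31, 6.71 and 9.18 CPM in *Prdm1*-CKO mice, without overlap, and its log2 fold change was 1.67 with a standard error of 1.08. *Ccr8*, a chemokine receptor of Th2 and regulatory T cells, was at 44.7 ± 11.99 CPM in CTL and 35.1 ± 1.98 CPM in *Prdm1*-CKO mice (SD, n = 3). Transcripts of *Il13* were at 0 counts in all 6 mice and *Il5* had 3 counts in 1 mouse and 0 in the others. *Il4*, named after its values were seen, was present in every mouse, at 21 to 88 counts.

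Of the 13 Th17 genes, 8 were tested and 0 were called, with a median of -0.08. *Ccr6*, a chemokine receptor, was at 27.6 ± 12.9 CPM in CTL and 20.9 ± 4.51 CPM in *Prdm1*-CKO mice (SD, n = 3). *Il17a* was at 0 counts in all mice. *Il23r*, which encodes a chain of the IL-23 receptor and did not pass the expression filter, had counts of 1, 0 and 0 in CTL mice and of 10, 22 and 14 in *Prdm1*-CKO mice, and was named after its values were seen.

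The 20 cytotoxic genes, which T-BET, EOMES, RUNX3 and ZEB2 are known to act on, had 0 past that threshold in the higher direction and 2 in the lower, beside 0.928% and 1.42% of all genes tested, with a median of -0.07. *Gzma*, a granzyme, was at 27.0, 62.3 and 37.7 CPM in CTL mice and 17.2, 18.4 and 21.7 CPM in *Prdm1*-CKO mice, and the groups did not overlap. Its log2 fold change was -1.14 (standard error 0.32). *Cd8a*, a chain of the CD8 coreceptor that RUNX3 acts on in the CD8 lineage, was low throughout, with 14 to 42 counts in CTL mice and 6 to 14 in *Prdm1*-CKO mice (log2 fold change -2.02, standard error 0.75). *Cd8b1*, the other chain, was higher in every *Prdm1*-CKO mouse (15.5 ± 1.41 against 11.5 ± 2.00 CPM, SD, n = 3). CD8 and natural killer cells, which the TCRβ+ CD4+ gate should remove, express *Tbx21*, *Eomes*, *Runx3* and *Zeb2*. Their 8 markers, *Gzma* and *Cd8a* among them, summed to 68.8, 143 and 98.4 CPM in CTL mice and 63.4, 58.8 and 82.0 CPM in *Prdm1*-CKO mice (exact permutation p = 0.2). The difference of -0.56 on the log2 scale was -0.29 without CTL mouse 2. CTL mouse 2 had the highest of these sums and the lowest *Tbx21* and *Eomes*. The part of these cells in the levels of the 4 factors was not tested.

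Partners and relatives of the factors gave 0 calls. Of the 14 partners and corepressors, 13 were tested, with a median log2 fold change of -0.12, and the smallest p were those of *Hdac2*, a histone deacetylase (log2 fold change -0.74, standard error 0.44), and *Ldb1*, an adaptor of GATA complexes (-0.42, standard error 0.27). Of 10 family relatives, 4 were tested, with *Zeb1* given above and a median of 0.36. *Gata4*, *Gata5* and *Gata6* had 0 counts in all mice. The 10 resting T cell genes, where SATB1 acts, were all tested with 0 calls and a median of -0.13, and their smallest p were those of *Foxp1* (-0.26, standard error 0.16) and *Il7r* (-0.31, standard error 0.21). Of the 19 Tfh identity genes, 0 were higher and 2 were lower at an unadjusted p under 0.05, beside 0.928% and 1.42% of all genes tested. The 2 were *Cd4* (log2 fold change -0.29, standard error 0.12) and *Pou2af1* (-0.59, standard error 0.25), and the median of the list was -0.05.

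Markers of other cells that the sort should exclude were present too and had higher means in *Prdm1*-CKO mice for B cells, plasma cells, macrophages, dendritic cells and erythroid cells, while no sum came below p = 0.2 in the exact permutation test. Log2 fold changes were above 0 for all 12 B cell and all 11 tested macrophage markers, with medians of 0.75 and 0.46. All 5 tested erythroid markers were above 0, as were 5 of the 6 plasma cell markers, with 1 below. The dendritic cell markers had 4 above and 3 below 0. Over all genes tested, 48.9% were below 0. Values are given for CTL against *Prdm1*-CKO mice. The 12 B cell markers summed to 127 to 226 against 189.6 to 281 CPM (exact p = 0.2) with 0 called, with *Ms4a1* at 17.6 ± 5.82 against 27.9 ± 5.15 CPM and *Cd79b* at 30.4 ± 16.7 against 52.5 ± 7.51 CPM (SD, n = 3). The 6 plasma cell markers summed to 261 to 417 against 401 to 679 CPM (exact p = 0.3), a log2 difference of 0.62 that was 0.39 without CTL mouse 2, with 1 called at an unadjusted p under 0.05, *Jchain* (log2 fold change 0.60), and *Derl3* next (1.11). Of the 11 macrophage markers tested 1 was called, *C1qc* (log2 fold change 1.49). The 8 erythroid markers summed to 8.91 to 17.6 against 13.1 to 48.1 CPM (exact p = 0.2), and 3 of the 5 tested were called higher beside 0.928% of all genes, *Hbb-bs* (1.88), *Hba-a1* (1.29) and *Hbb-bt* (1.76), globin genes whose counts are uncertain because they have near-identical copies. The 8 dendritic cell markers summed to 76.4 to 136 against 103 to 153 CPM (exact p = 0.7), a log2 difference of 0.20 that ran from -0.05 without CTL mouse 3 and 0.04 without *Prdm1*-CKO mouse 3 to 0.32 without *Prdm1*-CKO mouse 1 and 0.37 without CTL mouse 1, with *Zbtb46* at -0.91 and *Xcr1* at 1.16 on the log2 scale and 0 called. The part of these cells in the levels of the 9 factors was not tested.

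**Figure D4:**
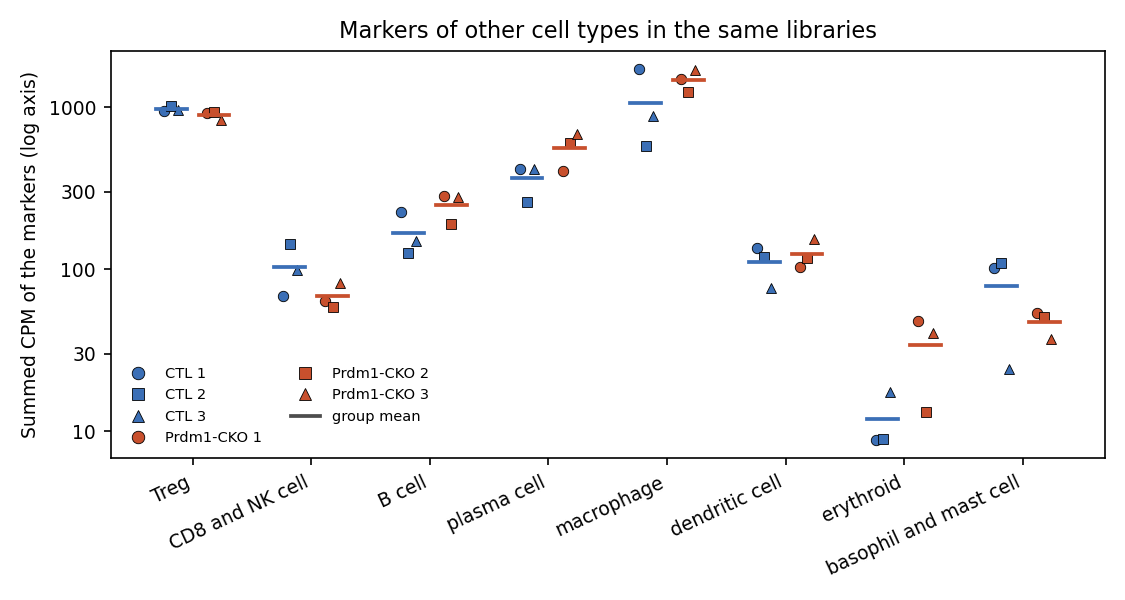
Summed CPM of the marker genes of 8 other cell types (vertical log axis) in each mouse, blue for CTL and orange for *Prdm1*-CKO, with a bar at each group mean. The regulatory T cell sums are close together in all mice, while the macrophage sum is lowest in CTL mouse 2 (578 CPM) and the basophil and mast cell sum is lowest in CTL mouse 3 (24.3 CPM).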

How the data were processed

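The authors sorted Tfh cells, made Smart-seq2 libraries, sequenced pairs of 25 bp on a NextSeq500 and counted reads per gene with featureCounts on mm10 (GRCm38) with GENCODE annotation. The submitters' processing notes name STAR 2.4.2a and DESeq2. The deposited values are raw counts for 53379 genes, 1 library per mouse. Strandedness and the handling of multiply aligned reads are not given in the sources used here. Symbols, exon lengths and coordinates came from GENCODE M21, which holds 53274 of the identifiers. Coordinates are given for members with the same gene version. The annotated span of *Runx1* is not given for that reason. All 9 members matched promoter windows from RefSeq on GRCm38.p6.

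Counts were tested with edgeR 4.0.16 in R 4.3.3 (TMM, filterByExpr, quasi-likelihood F test, no covariate), two-sided, with Benjamini-Hochberg adjustment over 14555 genes. CPM uses TMM factors, and log2 CPM a prior count of 2. Level differences between genes used log2 of CPM per kb plus 0.1. Neighbouring levels were compared within mice by exact sign-flip tests, and marker sums and ratios by exact permutation tests of 3 mice against 3. The edgeR and DESeq2 fits alone were tried on simulated counts, with 200 of 14555 genes changed 4-fold. At an adjusted p under 0.05, edgeR recovered 57% of these with 4 false calls, and DESeq2 73% with 30.

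The members and lists were chosen with earlier results of these data known. Genes named are the 9 factors, the 2 tested genes with the smallest p in each other list, Th1, Th2 and Th17 genes at 3 or fewer counts in all mice, the nearest profile of each factor and genes with overlapping exons. Of the genes this rule picks, 2 are not reported here by themselves, and they stay in every fit and list. Genes named beyond this rule are background or were picked after their values were seen. Alternatives were DESeq2 1.42.0 (size factors and Wald test), limma 3.58.1 (voom with quality weights), other low-count filters, the replicate number as a block, immunoglobulin genes left out, TPM or the longest transcript for levels, and each mouse left out in turn.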

Additional observations from a re-analysis of the deposited data

How the results depend on the processing

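No alternative gave any of the 9 factors an adjusted p under 0.05, the smallest being 0.685, and the direction held in every alternative for *Gata3*, *Eomes* and *Zeb2*. Leaving out 1 mouse at a time gave log2 fold changes from -0.46 to -0.26 for *Gata3*, 0.05 to 0.77 for *Eomes*, -0.32 to -0.02 for *Zeb2*, -0.18 to 0.29 for *Tbx21*, -0.42 to 0.00427 for *Rora*, -0.43 to 0.00816 for *Runx1*, -0.26 to 0.036 for *Runx2*, -0.12 to 0.17 for *Runx3* and -0.20 to 0.15 for *Satb1*. Those of *Rora* and *Runx1* turned without CTL mouse 2, that of *Runx2* without *Prdm1*-CKO mouse 1, that of *Satb1* without CTL mouse 3 or *Prdm1*-CKO mouse 2, that of *Tbx21* without CTL mouse 1 or 2 or *Prdm1*-CKO mouse 1 or 3, and that of *Runx3* without CTL mouse 3 or *Prdm1*-CKO mouse 1. *Runx3* also turned with voom (0.026) and with no low-count filter (0.017). *Gata3* alone was called at an unadjusted p under 0.05, and only without CTL mouse 1, so that 0 to 1 of the factors were called when mice were left out.

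Over all genes, DESeq2 called 7 higher and 2 lower and edgeR without the filter 1 higher at an adjusted p under 0.05. At an unadjusted p under 0.05, where edgeR called 135 higher and 207 lower, DESeq2 called 264 and 417, edgeR without the filter 426 and 510, and voom 268 higher, and leaving out mice gave 58 to 580 higher and 107 to 617 lower. Each of the 6 mice moved at least 1 of these counts by over 1.5 times, with 580 higher without CTL mouse 1, 225 without CTL mouse 2 and 77 and 58 without *Prdm1*-CKO mice 2 and 3, and with 617 lower without CTL mouse 3 and 107 without *Prdm1*-CKO mouse 1. Of the listed genes, 5 higher and 8 lower with edgeR, DESeq2 called 9 higher, edgeR without the filter 11 higher and voom 4 lower, and leaving out mice gave 1 to 16 higher and 4 to 13 lower. With the replicate number as a block, 8 listed genes were higher and 5 lower, *Gata3* was at -0.33, and no call among the 9 factors changed. Residuals of same-numbered mice correlated at 0.158, 0.0282 and 0.0160, against -0.131 to 0.0829 for differently numbered mice. The highest value was that of the mice numbered 1. The labels give no pairing, and the numbers were not taken as pairs. With the longest transcript length, *Runx3* lay below *Runx1* (-0.12), *Rora* below *Satb1* (-1.19) and *Eomes* below *Zeb2* (-0.64). The 8 pairs were kept from the order by all annotated exons, and not all are neighbours by that length. Of these pairs, 6 against 0 passed the threshold, *Rora* and *Satb1* among them in the turned direction. Leaving out a mouse gave 0 to 0 pairs past it, since 5 mice cannot give an exact p under 0.0625, and gave differences from -0.00062 (without CTL mouse 2) to 0.49 for *Satb1* minus *Eomes* and from -0.0043 (without CTL mouse 3) to 0.26 for *Rora* minus *Satb1*. With 3 mice a group, the 95% interval of each factor gives the range of changes these data leave possible.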
